A study of Mus musculus with 6 samples.

Results

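The variable (V) segments of the T cell receptor alpha chain (Trav) and beta chain (Trbv) were taken as all rows of the deposited count table whose symbol starts with Trav or Trbv and whose class is a T cell receptor V gene or V pseudogene. This gave 163 of 54532 gene rows, of which 128 were Trav (108 genes and 20 pseudogenes, on chromosome 14) and 35 were Trbv (22 genes and 13 pseudogenes, on chromosome 6). RNA had been sequenced from CD4 T cells of C57BL/6 mice, purified from spleen and lymph nodes and kept for 48 h on coated antibodies against CD3 and CD28, with no cytokine added. The controls were labelled iCD4-PRMT5fl/fl and carry floxed Prmt5 alleles (n = 3, replicates 1, 2 and 4), and the knockouts were labelled iCD4-PRMT5delta/delta and carry deleted alleles (n = 3, replicates 1, 4 and 5). The sources used here do not say what the prefix iCD4 stands for or when deletion took place. The series describes the replicates as biological.

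A T cell receptor is a pair of chains, each assembled in the developing thymocyte by joining a V segment to a J segment, with a D segment between them in the beta chain. The V segment encodes most of the outer domain of the chain, including the loops that touch the presenting molecule, and in a mature T cell the choice is fixed. The V segments present in the RNA of a bulk T cell population therefore reflect which clones are there and how much receptor RNA each holds. In bulk samples, fewer cells that use a segment and less RNA of it per cell cannot be told apart.

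The last bases of the coding sequence show what sets the segments apart and what they share. Every sequence comes from the GENCODE M21 transcripts of GRCm38, reads 5′ to 3′ and ends where the segment joins the next one. The first set is the last 60 coding bases of the 3 Trbv and 2 Trav segments with the most counts per length, with the codon of the conserved cysteine that closes the V domain in capitals.
Trbv13-2: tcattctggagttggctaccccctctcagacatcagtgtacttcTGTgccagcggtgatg
Trbv1: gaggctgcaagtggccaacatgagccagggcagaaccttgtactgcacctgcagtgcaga
Trbv31: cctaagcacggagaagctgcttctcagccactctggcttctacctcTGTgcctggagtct
Trav4-4-dv10: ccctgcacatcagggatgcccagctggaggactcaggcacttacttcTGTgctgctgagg
Trav14-3: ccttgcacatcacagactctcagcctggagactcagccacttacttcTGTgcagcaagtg
The codon was found by a search of the coding strand for TAC or TAT (tyrosine), any 3 bases and TGT or TGC (cysteine). The last match was taken, and the reading frame was not checked. The pattern was present in the last 60 coding bases of 128 of 130 segments with a coding sequence (98.5%). Trbv1 and Trbv19 lacked it, so Trbv1 is printed without capitals.

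The second set holds pairs whose bases decide how well short reads can be assigned, with the bases that differ between the members of a pair in capitals. Trbv12-1, the beta segment with the largest log2 fold change between the genotypes, is shown with its neighbour and paralog Trbv12-2, and their last 120 bases are shown.
Trbv12-1: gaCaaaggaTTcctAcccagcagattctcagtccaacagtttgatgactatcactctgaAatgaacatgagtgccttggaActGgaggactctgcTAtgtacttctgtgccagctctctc
Trbv12-2: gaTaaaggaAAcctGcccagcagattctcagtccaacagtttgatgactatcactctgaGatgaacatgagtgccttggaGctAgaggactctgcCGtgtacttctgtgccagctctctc
These paralogs differed at 44 of 372 coding bases (88.2% identity), and their longest identical run was 44 bases. Trav13-4-dv7, the alpha segment with the largest difference, is shown beside its copy Trav13d-4.
Trav13-4-dv7: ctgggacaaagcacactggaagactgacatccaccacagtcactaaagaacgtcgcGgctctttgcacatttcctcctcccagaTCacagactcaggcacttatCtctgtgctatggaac
Trav13d-4: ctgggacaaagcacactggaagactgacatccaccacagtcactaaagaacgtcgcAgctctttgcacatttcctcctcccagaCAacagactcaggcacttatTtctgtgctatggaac
That pair differed at 7 of 331 coding bases (97.9% identity), with an identical run of 160 bases. Trav11 and Trav11d are copies of the segment used by the invariant alpha chain of natural killer T cells, and their last 60 bases are shown.
Trav11: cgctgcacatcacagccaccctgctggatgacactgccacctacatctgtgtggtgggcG
Trav11d: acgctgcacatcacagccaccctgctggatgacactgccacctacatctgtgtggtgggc
Their coding sequences were identical over 342 bases, and Trav11 is longer by the final base in capitals.

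The labels were checked on the whole libraries. Gene counts per library ran from 29623513 in knockout 1 to 39832588 in control 4. Prmt5 stood at 98.2 to 134 CPM in controls and 34.2 to 41.1 CPM in knockouts, CPM being gene counts scaled to the size of the library. Its log2 fold change, knockout over control, was -1.70 ± 0.17 (standard error, SE; edgeR quasi-likelihood test, adjusted p = 0.109) on genotype alone and -1.58 ± 0.09 (adjusted p = 0.00312) with a batch term. The batch is a tag in the column names that parts control 1, control 2 and knockout 1 (batch A) from control 4, knockout 4 and knockout 5 (batch B); the sources used here do not say what it means. All 9 markers of CD4 T cells were detected in every library, with Cd4 at 241 to 331 CPM, while of the 2 CD8 T cell markers Cd8a lay at or below 2.69 CPM and Cd8b1 at 6.31 to 17.5 CPM.

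The beta segments were counted deeply enough for shares to be read segment by segment, the alpha segments far less so. Trbv counts summed to 4525, 4955 and 7749 in controls 1, 2 and 4 and to 4891, 7889 and 8740 in knockouts 1, 4 and 5. Trav counts summed to 1491, 1676 and 2403 in the controls and to 1931, 1988 and 2588 in the knockouts. Each library had a count for 24 to 28 of the 35 Trbv segments and for 72 to 81 of the 128 Trav segments. A mean of at least 100 counts was reached by 16 Trbv and by 2 Trav segments. No count was seen in any library for 42 members (37 Trav and 5 Trbv), 45 more had too few counts to be tested, and 76 (53 Trav and 23 Trbv) passed the low-count filter of the fits.

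Use of beta segments was concentrated on few genes, with much the same shares in every library. The 10 segments with the highest mean share held 79.1% to 80.9% of all Trbv counts in a library. Trbv1, which lies far upstream of the rest of the locus (GRCm38 chr6:40891229-40891885, plus strand), took 9.92%, 10.7% and 10.3% of Trbv counts in controls 1, 2 and 4 and 10.9%, 11.8% and 10.4% in knockouts 1, 4 and 5. Trbv31 (chr6:41557691-41558452), which lies on the minus strand and joins by inversion, took 9.75%, 9.55% and 10.9% in controls and 9.34%, 11% and 10.2% in knockouts. In both segments the genotypes overlapped.

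Trbv13-2 (chr6:41121396-41121832) belongs to the Trbv13 family, which is prominent among natural killer T cell beta chains in mice. Its share was 10.9%, 9.75% and 8.92% in controls and 12.9%, 9.13% and 10.1% in knockouts. Knockout 1 stood highest, at 12.9% with a 95% Clopper-Pearson interval of 11.9% to 13.8%, above the intervals of all other libraries. The interval of control 1 in turn lay above those of control 4 and knockout 4, whose upper ends were 9.57% and 9.78%. All other pairs of intervals overlapped. Such intervals cover counting error only, since the reads carried no molecular identifiers that the sources used here mention. The 3 members of the Trbv13 family together held 22.5%, 20.1% and 18.5% in controls and 24.4%, 18.9% and 20.8% in knockouts.

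Trbv3 took 9.28% to 11% in controls and 8.01% to 10.4% in knockouts. Trbv2 lay at 9.37% to 10.2% against 9.06% to 9.53%, and Trbv19 at 9.55% to 10.7% against 8.24% to 9.82%. The genotypes overlapped in all 3 segments. Trbv13-1, Trbv15, Trbv16 and Trbv13-3 followed with mean shares of 6.59%, 5.25%, 4.60% and 4%, and these too overlapped. Among segments with a mean of at least 100 counts, Trbv20 and Trbv17 were among those in which a library departed most from the median. Trbv20 ran from 2.51% in knockout 1 to 4.26% in control 4, and Trbv17 from 1.30% in control 1 to 2.00% in control 4.

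Because V segments differ in length, levels were set against each other per kilobase. On that scale, the mean share over libraries was 12.3% for Trbv13-2, 10.4% for Trbv1, 9.92% for Trbv31, 8.60% for Trbv3, 7.34% for Trbv13-1, 6.98% for Trbv2 and 6.81% for Trbv19. Trbv13-2 thus came before Trbv1 once length was counted, and Trbv2 and Trbv19, the longest of these rows at 560 and 566 bases, moved behind Trbv13-1. At the low end of the tested beta segments, Trbv30, Trbv5 and Trbv21 had per-kilobase shares of 0.373%, 0.273% and 0.189%.

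**Figure D1:**
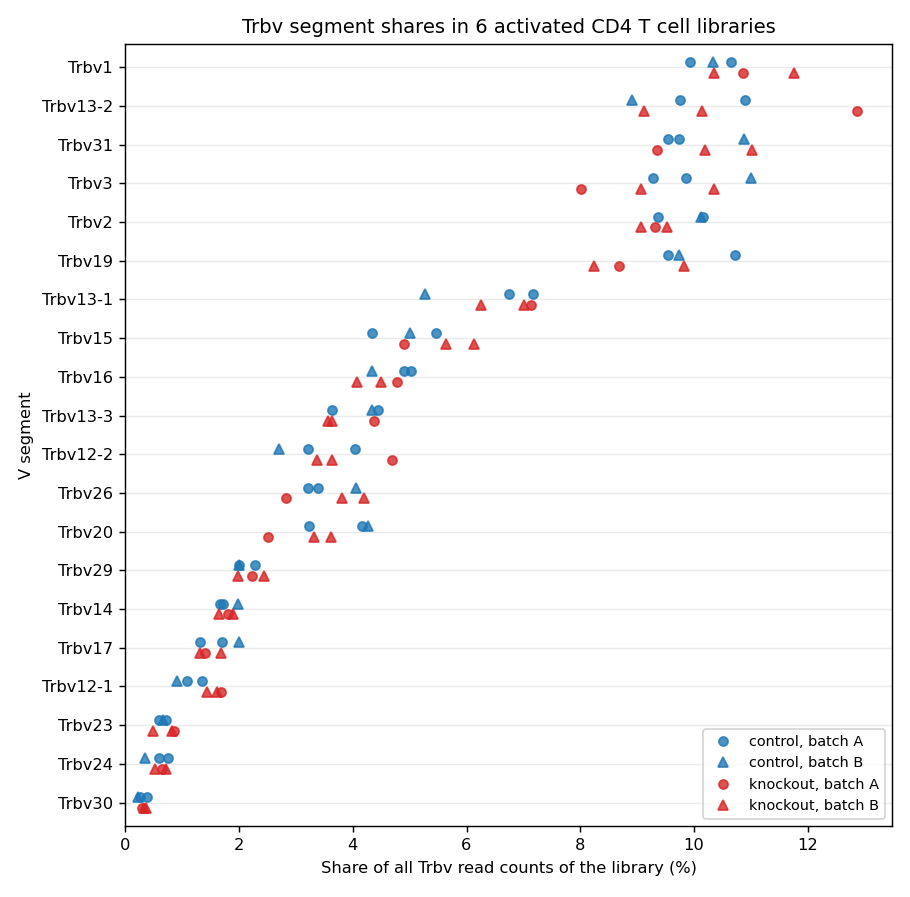
Share of all Trbv read counts (%) for the 20 Trbv segments with the highest mean share. Each point is a library, blue for control and red for knockout, circles for batch A and triangles for batch B. The points of a segment lie close together beside the distance between segments, and the genotypes overlap in every row but Trbv12-1.

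Alpha segments were spread over many more members. The 10 Trav segments with the highest mean share held 37.1% to 39.1% of Trav counts per library. Trav14-3 (chr14:53763173-53763694, plus strand) took 5.90%, 5.19% and 4.37% in controls and 5.23%, 5.58% and 4.56% in knockouts. Trav4-4-dv10 (chr14:53683647-53684177, plus strand) took 5.23%, 5.79% and 4.83% in controls and 3.94%, 5.89% and 4.87% in knockouts. The genotypes overlapped in both segments.

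Trav14-2, Trav14n-3, Trav13-1, Trav14-1, Trav5-4, Trav7-4, Trav14d-3-dv8 and Trav6-7-dv9 completed the 10, with single-library shares between 1.27% and 5.53%. Both ends of that range lay in controls. Per kilobase, the mean share was 5.40% for Trav4-4-dv10, 5.13% for Trav14-3, 4.83% for Trav14n-3, 4.60% for Trav14-2 and 4.36% for Trav13-1. Summed over its 9 members, the Trav14 family held 19.2% to 22% of Trav counts in a library, with a mean of 20.5%. By mean share the next families were Trav13 with 12 members at 9.56%, Trav7 with 13 at 9.40% and Trav6 with 15 at 9.36%. Of these families, Trav7 alone had genotypes that did not overlap, at 10.6%, 10.3% and 9.74% in controls and 8.29%, 8.90% and 8.62% in knockouts. This difference in share was not tested.

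**Figure D2:**
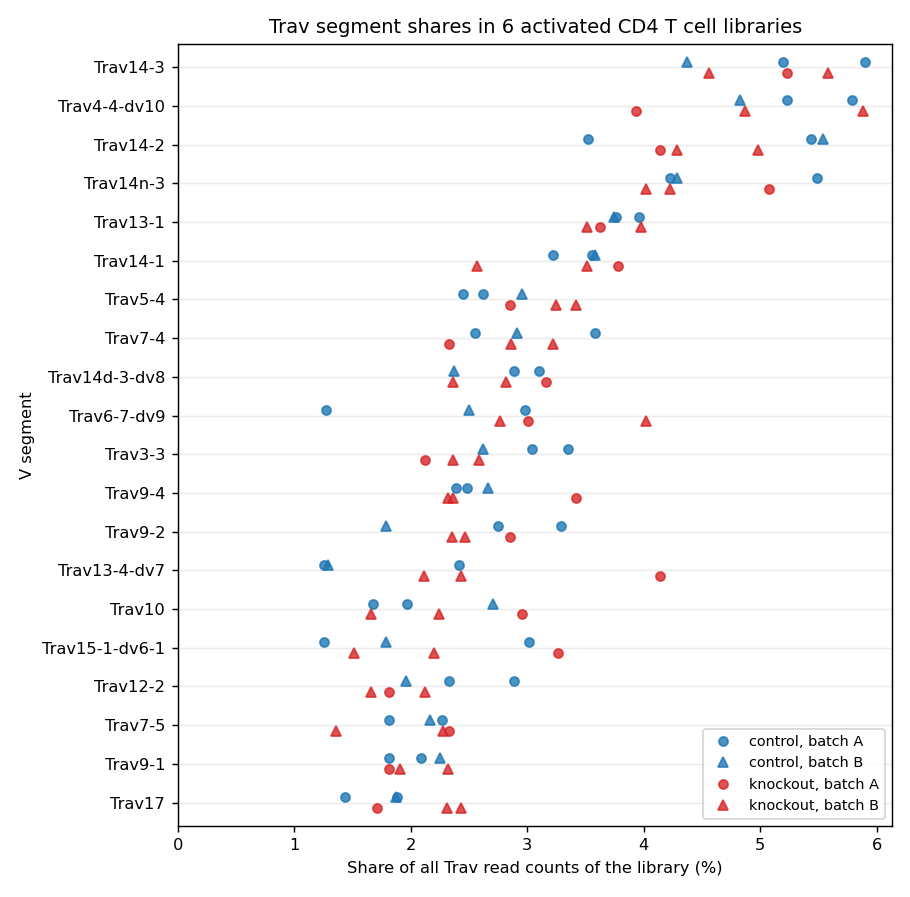
Share of all Trav read counts (%) for the 20 Trav segments with the highest mean share, with the same colours and symbols. Shares are smaller than those of Trbv and single libraries scatter more widely around them, as in Trav13-4-dv7, Trav6-7-dv9 and Trav15-1-dv6-1, where shares of the same genotype lie well apart.

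The alpha locus of C57BL/6 mice holds repeated blocks of near-identical segments, marked by d or n in the symbol, and segments with no sequence of their own had few or no counts. Of the Trav members, 73 were such copies (39 d and 34 n), and 30 had a coding sequence identical to that of another member. The share of 50-base words of a segment's transcript found in no other gene was used to describe this, with 50 bases as a stand-in for a short read. Among Trav genes with no unique word, 28 of 38 had no count in any library, the highest mean was 5.50 counts, and together they held 0.348% of Trav counts. The 29 genes with some but under 50% unique words held 37.1% of Trav counts, the 33 with 50% or more but not all held 53.7%, and the 8 with only unique words held 6.79%.

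Among Trbv genes, 17 of 22 had only unique words and held 81.0% of Trbv counts, and 3 more with 50% or more held 17.9%. Values of Trav copies are therefore uncertain where the counting could not place a read. The sources used here do not say how reads with several matches were treated.

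**Figure D3:**
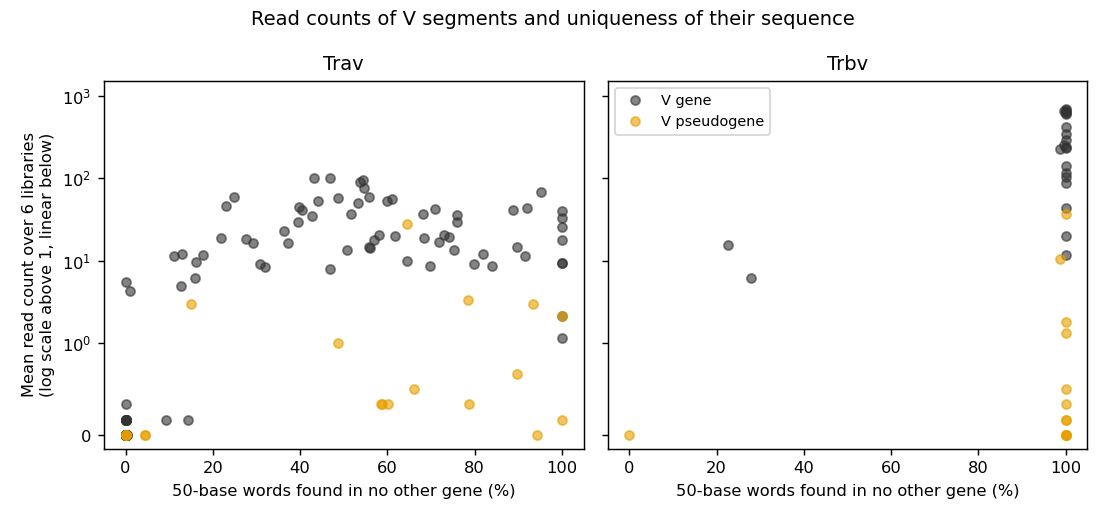
Mean read count over 6 libraries (log scale above 1, linear below) against the percentage of 50-base words of each segment found in no other gene, for Trav (left) and Trbv (right), V genes in dark grey and V pseudogenes in orange. Trav genes without a unique word sit at or near 0 counts, many points lying on top of each other, while Trbv genes are mostly at 100%.

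Counts also differed by position in the alpha locus. The Trav segments were divided by position into 3 groups of like number. The group nearest the J segments (42 segments, chr14:53461099-53977678) held 70.9%, 69% and 68.5% of Trav counts in controls and 71.4%, 72.1% and 72.4% in knockouts. The knockouts lay above the controls without overlap, with group means of 72% ± 0.53 and 69.4% ± 1.28 (SD, n = 3 each), a difference that was not tested. This group holds Trav13-4-dv7, described below. Its other 41 segments held 68.5%, 67.7% and 67.2% of all Trav counts in controls and 67.3%, 70% and 70% in knockouts, which overlapped. Trav13-4-dv7 stayed in that total, which lowers the share most in knockout 1, where this segment was highest. Shares with it also taken out of the total were not computed, so the overlap does not show that the separation rested on Trav13-4-dv7. The middle group held 19.7% ± 1.01 in controls and 18.4% ± 0.56 in knockouts, which overlapped, and the distal group 10.9% ± 0.30 and 9.60% ± 0.56. In the distal group every knockout lay below every control, with 10.6% the lowest control and 10.1% the highest knockout. This difference was not tested either. Trav13-4-dv7 is not in the distal group but counts in the total. Median uniqueness was 60.1% in the near, 4.52% in the middle and 1.01% in the distal group, where 2, 17 and 18 segments were at 0 in all libraries. The part of mappability in these levels was not tested.

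Pseudogenes, which cannot encode a chain, took 1.71% to 2.57% of Trav counts and 0.646% to 0.906% of Trbv counts per library. The most abundant were Trav8-2, at 1.27%, 1.67% and 1.71% in controls and 1.24%, 1.01% and 1.39% in knockouts, and Trbv24, at 0.751%, 0.585% and 0.336% against 0.634%, 0.710% and 0.526%. The genotypes overlapped in both.

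Segments of innate-like T cells had few counts or none. Trav11 had no count in any library, and Trav11d had a count in control 2 alone. Since neither holds a 50-base word of its own, a count of 0 sets no limit on their share. The other copy, the pseudogene Trav11n, with 78.6% unique words, had 2, 6 and 3 counts in controls and 2, 4 and 3 in knockouts. Trav1, used by the invariant alpha chain of mucosal-associated invariant T cells and fully unique, took 0.402%, 0.358% and 0.541% in controls and 0.104%, 0.553% and 0.734% in knockouts. These rest on 2 to 19 counts per library, and the genotypes overlapped.

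The question of the genotype comparison was whether receptor usage or level differed with Prmt5. Distances between repertoires of unlike and of like genotype covered much the same range. The Bray-Curtis distance, the percentage of a repertoire that would have to be reassigned to match another, averaged 12.8% (range 10.1% to 14.4%) over the 9 Trav pairs of unlike genotype and 13% (11.4% to 15.6%) over the 6 pairs of like genotype. For Trbv the means were 6.34% (4.44% to 10.4%) and 6.63% (5.11% to 8.47%). Inside a batch, the 4 Trbv pairs of unlike genotype averaged 6.22% and the 2 of like genotype 5.56%, so the order of these means turned, while for Trav they averaged 12.5% and 12.9%. By batch, unlike and like pairs averaged 13.1% and 12.6% for Trav and 6.76% and 6.00% for Trbv. Group mean shares of knockouts and controls correlated over segments with a Pearson r of 0.983 and Spearman rho of 0.959 in Trav (128 segments) and 0.994 and 0.986 in Trbv (35 segments). These coefficients describe segments of the same libraries, and segments are not independent replicates. They include the 37 Trav and 5 Trbv segments with no count in any library, and 38 Trav and 7 Trbv segments with too few counts to be tested. Segments at or near 0 in both genotypes can raise the coefficients.

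Scatter between libraries was set beside counting error. Over the segments tested, the chi-square of a segment's counts against its locus total was taken per degree of freedom. Its mean was 1.65 in Trav and 3.77 in Trbv, where counting alone gives about 1. Its median was 1.34 in Trav and 2.99 in Trbv, where counting alone gives less than 1. The measure grows with the count for the same relative scatter, so Trav and Trbv are not compared by it. Trav13-4-dv7 was highest in Trav at 9.70 and Trbv13-2 in Trbv at 11.7. Within genotype, the means were 1.54 and 1.67 for Trav and 3.23 and 4.05 for Trbv, in controls and knockouts. The medians were 0.871 and 1.01 for Trav and 2.64 and 2.41 for Trbv. With 3 libraries, counting alone gives a lower median than with 6, so these medians are not set against those over all libraries.

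No difference in diversity passed the test. The effective number of segments, the exponential of the Shannon entropy of the shares, was 48.5, 50.6 and 52.8 in controls and 48.4, 50.4 and 50.8 in knockouts for Trav. The mean difference was -0.787 (exact two-sided permutation test, p = 0.6), and without control 4 its sign turned (0.295). For Trbv the values were 15.3, 15.5 and 15.4 in controls and 15.5, 15.4 and 15.7 in knockouts, a difference of 0.146 (exact permutation p = 0.3). With 3 libraries against 3, such an exact permutation test cannot go below p = 0.1.

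Mean summed levels were higher in knockouts with scaling to library size and lower with scaling to ERCC spike-in RNA. An exact permutation test of 3 libraries against 3 cannot go below p = 0.1, so neither difference could have passed 0.05. Control 2 had the fewest ERCC counts, at 188688 against 261586 to 425050 in the others. It also had the highest ERCC-scaled level of both loci, and ERCC scaling without control 2 was not run for the sums. Summed Trav stood at 49.0, 50.7 and 62.3 CPM in the controls, against 61.2, 57.6 and 82.4 CPM in knockouts, with means of 54.0 ± 7.22 and 67.1 ± 13.4 CPM (SD, n = 3 each). The log2 difference was 0.30 (exact two-sided permutation test, p = 0.3) with library-size scaling and -0.26 (exact permutation p = 0.4) with ERCC scaling. On the ERCC scale the log2 levels were 5.81, 6.45 and 5.82 in controls and 5.66, 5.74 and 5.91 in knockouts. The groups overlapped.

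Summed Trbv stood at 149, 150 and 201 CPM in the controls, against 155, 228 and 278 CPM in knockouts, with means of 167 ± 29.8 and 221 ± 62.0 CPM. The log2 difference was 0.38 (exact permutation p = 0.2) and -0.18 (exact permutation p = 0.6) under ERCC scaling. Inside batches A and B, the log2 difference was 0.30 and 0.14 for Trav and 0.05 and 0.33 for Trbv. Under ERCC scaling the median over all genes tested was -0.59 (genotype alone) or -0.44 (batch term), and both summed loci lay above that median.

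No V segment passed adjusted p 0.05 in either edgeR fit. On genotype alone, 0.0% of all genes tested passed, and with the batch term 6.5% did. At an unadjusted p under 0.05, 2 Trav and 3 Trbv segments were counted on genotype alone, against 11.3% of all genes. With the batch term there were 1 Trav and 3 Trbv, against 29.1%. DESeq2 called no segment on genotype alone, where it called 1.98% of all genes, and called 1 Trav segment with the batch term, where it called 15.6%.

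The direction was shared widely among tested segments and, as with the sums, reversed for most of them under ERCC scaling, where control 2 had the fewest spike-in counts. On genotype alone, the log2 fold change was above 0 in 23 of 23 Trbv and 44 of 53 Trav segments, against 51.0% of all genes. The medians were 0.46 for Trbv, 0.30 for Trav and 0.01 for all genes. With the batch term, 19 Trbv and 40 Trav segments were above 0, against 52.1% of all genes, and the medians were 0.17, 0.23 and 0.02. Under ERCC scaling on genotype alone, 6 Trbv and 6 Trav segments were above 0. With the total of the segment's own locus as the size of the library, the medians were 0.03 for Trbv and -0.02 for Trav, and 14 Trbv and 25 Trav segments were above 0.

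**Figure D4:**
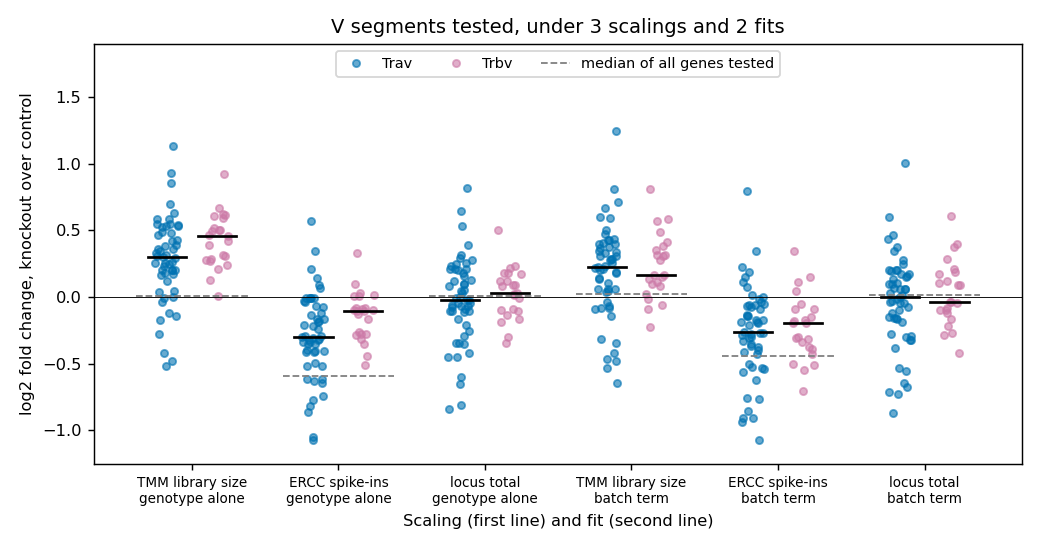
Log2 fold change, knockout over control, of the 53 Trav (blue) and 23 Trbv (pink) segments tested, under 3 scalings and for the fits on genotype alone (left 3 columns) and with the batch term (right 3 columns). Black bars are medians of the segments and dashed lines the median of all genes tested. Most points lie above 0 with library-size scaling, below 0 with ERCC scaling and on both sides of 0 with the locus total.

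Few segments had genotypes that did not overlap in their share. Among the 76 tested segments there were 5, with Trbv12-1 and Trav6-5 higher in knockouts and Trav3-3, Trav7n-4 and Trav7-1 lower. In CPM, 9 of 76 were higher in every knockout than in every control and none was lower. Of all genes tested, 9.35% were higher in this way and 18.0% differed in either direction, so the count of members lies near the background. The values below were chosen after those overlaps were seen.

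Trbv12-1 (chr6:41113550-41114067) took 1.35%, 1.09% and 0.903% of Trbv counts in controls and 1.68%, 1.43% and 1.61% in knockouts. It reached 2.01, 1.63 and 1.81 CPM in the controls, against 2.60, 3.27 and 4.49 CPM in knockouts. Every knockout lay above every control on both scales. The log2 fold change was 0.92 ± 0.29 (SE; edgeR, adjusted p = 0.314) on genotype alone and 0.81 ± 0.26 (edgeR, adjusted p = 0.0952) with the batch term. On genotype alone it was 0.33 with ERCC scaling and 0.50 with the Trbv total as library size. Inside batches A and B the log2 difference was 0.42 and 0.91.

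Trbv12-2, its neighbour and paralog (chr6:41118851-41119364), stood at 6.02, 4.81 and 5.42 CPM in the controls, against 7.26, 7.70 and 10.1 CPM in knockouts, again without overlap. As a share of Trbv it overlapped, at 4.04%, 3.21% and 2.70% against 4.68%, 3.37% and 3.64%. The log2 fold change was 0.63 ± 0.22 (edgeR, adjusted p = 0.345), and 0.57 ± 0.20 with the batch term (edgeR, adjusted p = 0.109). On genotype alone it was 0.03 with ERCC scaling and 0.23 with the Trbv total. Trbv13-2 stood at 16.2, 14.6 and 17.9 CPM in the controls, against 19.9, 20.8 and 28.2 CPM in knockouts, without overlap. Its log2 fold change was 0.50 ± 0.19 (edgeR, adjusted p = 0.383) with library-size scaling and -0.09 with ERCC scaling.

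Trav13-4-dv7 (chr14:53757356-53757921, plus strand) can also join to delta chain segments. It stood at 1.18, 0.635 and 0.804 CPM in the controls, against 2.54, 1.22 and 2.01 CPM in knockouts, with knockout 1 highest and knockout 4 next to control 1. Its share of Trav overlapped, at 2.41%, 1.25% and 1.29% in controls and 4.14%, 2.11% and 2.43% in knockouts. The log2 fold change was 1.13 ± 0.39 (edgeR, adjusted p = 0.339) on genotype alone and 1.25 ± 0.35 (edgeR, adjusted p = 0.0679) with the batch term. With the batch term it was called without knockout 4 (edgeR, adjusted p = 0.0347), with no low-count filter (adjusted p = 0.0018) and by DESeq2 (adjusted p = 0.0470). On genotype alone it was 0.57 with ERCC scaling. Without knockouts 1 and 5, its log2 fold change on genotype alone was 0.48 (edgeR, adjusted p = 0.905). Only 22.9% of its 50-base words are its own.

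Of the remaining segments without overlap in share, Trav6-5 took 0.537%, 0.895% and 0.666% in controls and 0.932%, 1.36% and 1% in knockouts. Trav3-3 took 3.35%, 3.04% and 2.62% in controls and 2.12%, 2.36% and 2.59% in knockouts. Trav7n-4 and Trav7-1 had shares of 0.656% to 1.27% in controls and 0.352% to 0.570% in knockouts. The adjusted p of these 4 segments lay between 0.373 and 0.996 on genotype alone (edgeR), and Trav7-1 and Trav7n-4 rest on means of 11.3 and 13.5 counts.

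The 10 Trav segments marked dv, which both the alpha and the delta chain use, were summed as a group. They held 17.4%, 17.7% and 16.6% of Trav counts in controls and 20.5%, 18.4% and 20.2% in knockouts, without overlap, and the difference was not tested. Without Trav13-4-dv7, the other 9 held 15%, 16.5% and 15.3% in controls and 16.4%, 16.2% and 17.8% in knockouts, and the genotypes overlapped. These are shares of all Trav counts, with Trav13-4-dv7 kept in the total. Trdc, the delta constant gene that marks gamma-delta T cells, was higher in every knockout than in every control. It stood at 3.88, 2.27 and 3.16 CPM in the controls, against 14, 4.31 and 8.31 CPM in knockouts. Its log2 fold change was 1.51 (edgeR, adjusted p = 0.297) on genotype alone and 1.60 ± 0.36 (edgeR, adjusted p = 0.0449) with the batch term.

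The gamma chain rows of the table summed to 4.24, 3.45 and 8.76 CPM in the controls, against 16.4, 8.66 and 17.6 CPM in knockouts, and none of the 5 tested passed in either edgeR fit. The remaining gamma-delta markers of the table, Sox13 and Trdv4, lay at or below 0.285 CPM and 0.127 CPM. The part of gamma-delta transcripts in the dv segments was not tested. Without the dv segments, the summed Trav log2 difference was 0.26 (exact permutation p = 0.3).

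**Figure D5:**
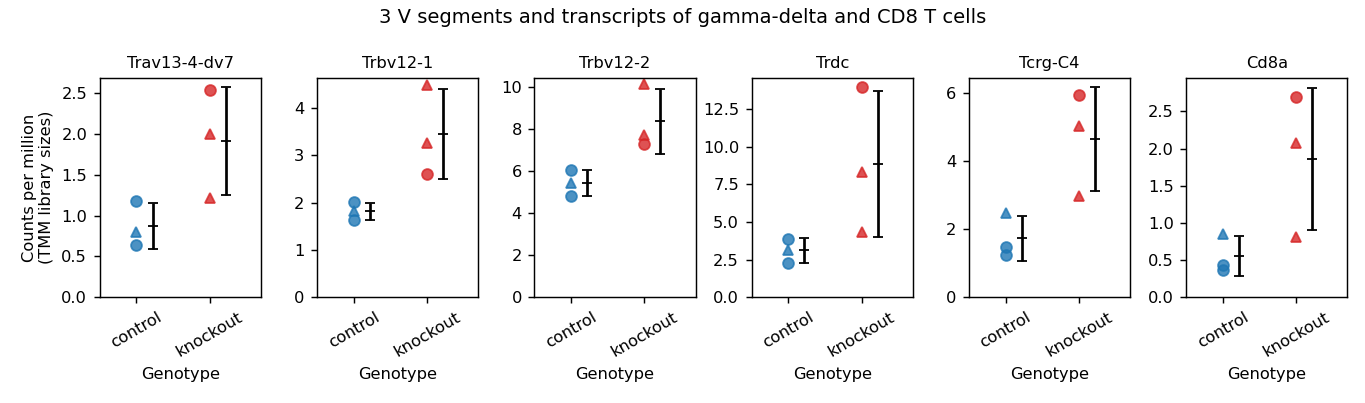
Level in CPM of Trav13-4-dv7, Trbv12-1, Trbv12-2, Trdc, Tcrg-C4 and Cd8a by genotype. Each point is a library, circles for batch A and triangles for batch B, and the bar beside them is the mean with its SD (n = 3). Controls lie low and close together in the first 4 panels, and knockout 1 (red circle) is highest in Trav13-4-dv7, Trdc, Tcrg-C4 and Cd8a but lowest of the knockouts in Trbv12-1 and Trbv12-2.

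Cd8a and Zbtb16, but not Cd8b1, were also highest in knockouts 1 and 5. Cd8a stood at 0.427, 0.363 and 0.855 CPM in the controls, against 2.69, 0.811 and 2.07 CPM in knockouts. Cd8b1 stood at 6.87, 6.72 and 14.5 CPM in the controls, against 6.31, 13.9 and 17.5 CPM in knockouts, with knockout 1 the lowest of the 6 libraries. Zbtb16, the transcription factor of innate-like T cells, stood at 0.921, 0.545 and 0.855 CPM in the controls, against 2.09, 0.985 and 1.91 CPM in knockouts. Of the B cell list, 6 of 7 markers were tested and 1, Pax5, passed with the batch term (edgeR, adjusted p = 0.0453). B cell markers summed to 35.9 to 75.3 CPM in the controls, against 35.4 to 91.6 CPM in knockouts. Their part in the V segment levels was not tested.

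The other genes of the receptor and of its assembly were compared from lists of their known members. Of the 7 receptor constant symbols listed, 4 were in the table under those names and Trdc alone passed, with the batch term. Trac stood at 124, 116 and 156 CPM in the controls, against 110, 144 and 179 CPM in knockouts. Trbc1 stood at 184, 177 and 217 CPM against 186, 273 and 324 CPM, and Trbc2 at 393, 384 and 428 CPM against 381, 542 and 616 CPM. In all 3 the genotypes overlapped, and knockout 5 was highest. None of the 4 CD3 chains and none of the 3 co-receptor genes Cd4, Cd8a and Cd8b1 passed in either edgeR fit.

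J segments, the partners in assembly, summed to 63.3, 68.6 and 77.4 CPM for Traj in controls and 101, 74.9 and 98.4 CPM in knockouts. Trbj summed to 36.4, 33.5 and 45.8 CPM in the controls, against 44.4, 53.4 and 59.1 CPM in knockouts. The groups overlapped in both. Of the 10 genes of V(D)J recombination, 8 were tested and none passed in either edgeR fit. Rag2, whose product makes the cut together with that of Rag1, was at 0 counts in every library, and Rag1 lay at or below 0.0951 CPM. Dntt, which adds bases at the joins, varied from 0.475 CPM in knockout 1 to 18.1 CPM in control 4.

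The rest state was available as the authors' own comparisons, since the unstimulated columns carry no sample of the labels and were not used. Of the members, 91 (68 Trav and 23 Trbv) have values in the authors' deposited table. In controls, that table lists 65 of 68 Trav and 22 of 23 Trbv segments as higher in unstimulated than in activated cells at adjusted p under 0.05 and none as lower, where 42.8% of all genes were higher. The authors' deposited table gives median log2 fold changes, rest over activated, of 1.58 for Trav, 1.33 for Trbv and 0.32 for all genes. In knockouts the authors' deposited table has 61 Trav and 16 Trbv as higher and none as lower, against 35.4% of all genes, with medians of 1.39 and 0.97. These comparisons of the authors' deposited table share samples with each other and with the genotype comparison, and whether controls and knockouts differ in them was not tested.

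Several of the beta segments with the most counts had small values in those columns. Trbv1, Trbv31 and Trbv19 have log2 values, rest over activated, of 0.56, 0.51 and 0.47 in controls and 0.29, 0.28 and 0.26 in knockouts, per the authors' deposited table. Trbv31 was the Trbv segment not called in controls (adjusted p = 0.0778 in the authors' deposited table). By comparison, Trbv12-1 has 1.92 and 1.25 and Trbv13-2 1.40 and 0.99 in the authors' deposited table. The alpha segment Trav14d-3-dv8 has 2.57 and 2.25 (adjusted p = 2.67e-30 in controls), per the authors' deposited table. Trav15d-3 has the highest value of all members, 5.26 in controls in the authors' deposited table, but it had at most 1 raw count in any activated library.

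Between genotypes, the authors' deposited table calls no V segment in unstimulated cells, where 0.0151% of all genes were called. Its log2 values there lie between -1.46e-05 and 4.27e-06 for the members, so no size can be read from the authors' deposited table for that comparison. In activated cells it calls 2 segments, both higher in knockouts, against 6.1% of all genes called in either direction and 3.15% called higher in knockouts. They are Trbv12-1 (log2 control over knockout -0.68, adjusted p = 0.0331) and Trav13-4-dv7 (-0.78, adjusted p = 0.0466) in the authors' deposited table. Neither passed in the edgeR fits with all 6 libraries and the low-count filter.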

How the data were processed

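The authors deposited a table of genes by libraries holding raw read counts, marked as raw in its column names; STAR, featureCounts, DESeq2, DESeq and GRCm38.p3 are named, without role or version, per the submitters' processing notes. The log2 fold changes and adjusted p-values of the authors' own comparisons were also deposited, with no tool or adjustment named. RNA was depleted of ribosomal RNA before stranded TruSeq preparation, per the labels' protocols. Another 18 per-sample columns (12 unstimulated, which match no labelled sample, and normalized values) were not used.

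The members and lists were chosen with earlier results of these data known. All 163 members matched GENCODE M21 by identifier. Shares are raw counts of a segment over all Trav or Trbv counts of the library. The whole table, without 92 ERCC rows, was fitted with edgeR 4.0.16 (filterByExpr, minimum count 10, minimum total 15; TMM; glmQLFit; R 4.3.3), leaving 15685 genes, with Benjamini-Hochberg adjustment over them at 0.05; DESeq2 1.42.0 was an alternative. CPM use TMM library sizes. SE is the log2 fold change over the square root of F. Within-batch log2 differences of single segments add 0.5 CPM. The fits were tested on simulated data. Named segments are the 10 per locus with the highest mean share, those past the threshold, those with a mean of at least 100 counts that varied most, Trav11, Trav1, Trbv31 and the most abundant pseudogenes; others were named after their values were seen. Values inside batches, per kilobase, without dv segments, without knockouts 1 and 5 and without Trav13-4-dv7 were chosen after seeing the data.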

Additional observations from a re-analysis of the deposited data

How the results depend on the processing

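The count of V segments past adjusted p 0.05 stayed at 0 on genotype alone in each alternative run with replicates in both genotypes. No gene of any kind passed on genotype alone with DESeq2 size factors, the locus total, summed families or a single library left out. In those runs the V segment count could only be 0. Genes did pass with ERCC scaling (273 of 15685), no low-count filter (720 of 35183), DESeq2 (345 of 17443) and the replicate block (534 of 16023). With the batch term the count of V segments stayed at 0 for Trbv. For Trav it was 1 with no low-count filter, 1 under DESeq2, and 0 to 1 when single libraries were left out. Trav13-4-dv7 had log2 fold changes of 1.22, 1.22 and, without knockout 4, 1.41 there, and the cause was not tested. Without control 4 or without knockout 1, no gene passed with the batch term. ERCC scaling turned the summed levels to -0.26 (Trav) and -0.18 (Trbv) and the log2 fold change of Trbv13-2 to -0.0879 (genotype alone) and -0.0552 (batch term). Control 2, with the fewest ERCC counts, had the highest summed level of both loci on that scale. Counting families in place of segments turned the difference in effective number to 0.366 (Trav) and -0.0735 (Trbv). Leaving out single libraries gave -1.86 to 0.295 and 0.0548 to 0.225 for effective number, and 0.14 to 0.41 and 0.19 to 0.61 for summed levels. The replicate block, over libraries 1 and 4 of each genotype, called 0 V segments; deviations of same-numbered libraries correlated at 0.704 and 0.510, but these pairs also share a batch. The number of segments without overlap in share was 5 in each alternative. Without d and n copies these were not the same segments, since Trav7n-4 is such a copy. Leaving out single libraries was not run for this number. Low Trav counts limit what could be detected there.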
